A study of Mus musculus with 12 samples.

Results

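The genes Fgf2, Fgf3, Fgf4, Fgf5, Fgf8, Fgf15 and Fgf17 encode fibroblast growth factor (FGF) ligands of early development, and their chromosomal contacts were described in mouse embryonic stem cells (ESC) and neuronal committed cells (NCC). The genes were taken by name, with no threshold on a measured value, and made up 7 of 21728 protein-coding genes on chromosomes 1 to 19 and X. All cells were of the E14Tg2A line. ESC were grown with 100 U/mL Leukemia Inhibitory Factor (LIF), and NCC were the same cells after 48 h in LIF-free medium with 1 μM Retinoic Acid. Each cell type was processed by Hi-C, which ligates fixed DNA fragments that lie close together, and by HiChIP, which is Hi-C followed by immunoprecipitation, with an antibody against FGFR1 or against CTCF. The 2 biological replicates of each of the 6 combinations were merged by the authors, so that each group is 1 pooled library of 1 cell line and the spread between replicates is not known.

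FGF ligands are secreted proteins that bind FGF receptors at the cell surface, and the MAP kinase cascade below these receptors is one of the routes by which ESC leave pluripotency. Fgf4 is made by ESC themselves, Fgf5 marks the epiblast state that follows, and Fgf2 is a growth factor used to keep epiblast and neural progenitor cells in culture. Fgf8 and Fgf17 belong to a single subfamily and pattern the midbrain, the cerebellum and the frontal cortex. Fgf3 acts in the inner ear and the tail bud, and Fgf15 is made in the embryonic brain and later in the gut. FGFR1, a receptor of these ligands, is also found in the nucleus, and CTCF is a DNA-binding protein at the borders of many contact domains.

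A read pair was assigned to a gene when one of its anchors overlapped the gene body plus 10 kb on each side, called the window below. An anchor is a stretch between restriction sites to which read pairs were assigned, and anchors were called in each library on its own. The depth on the 20 chromosomes was 20745652 (ESC) and 21228099 (NCC) read pairs for Hi-C, 2662606 and 3203872 for FGFR1 HiChIP, and 1218098 and 1056437 for CTCF HiChIP. Because anchors differ between libraries, the ratio of the anchor length in the window is given beside the ratios of read pairs on which the results turn. Across genes, which are not independent, Pearson's r between the log2 ratio of read pairs and the log2 ratio of anchor length, NCC over ESC, was 0.930 in Hi-C (19983 genes), 0.874 in FGFR1 HiChIP (19766 genes) and 0.841 in CTCF HiChIP (18536 genes). Ratios were scaled to the library totals, and their 95% intervals are exact conditional (Clopper-Pearson) intervals that cover counting error only. Contact data hold no expression values, so the identity of the cells was not checked against marker genes.

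In mm10 coordinates of the GENCODE annotation, Fgf2 lies on chromosome 3 (37348346 to 37410108), Fgf5 on chromosome 5 (98254184 to 98277030), Fgf17 on chromosome 14 (70636203 to 70642268) and Fgf8 on chromosome 19 (45736798 to 45742915). Fgf3 (144838083 to 144844436), Fgf4 (144847367 to 144865243) and Fgf15 (144896531 to 144900953) follow each other on chromosome 7. They span 62.9 kb, here called the chr7 locus. The windows of Fgf3 and Fgf4 share 17.1 kb and therefore many read pairs. The GENCODE span of Fgf4 starts upstream of the RefSeq span (144861386 to 144865245). Fgf17 and Fgf8 are on the minus strand, and the other members are on the plus strand.

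Sites with the CTCF consensus were located in the reference sequence because CTCF HiChIP was one of the assays and the choice of the genes did not use sequence. The 12-base core of the consensus was found 12728 times on the 20 chromosomes, on either strand. It lay within the 20 kb around the start of 14.7% of the 21728 genes. Of the members, Fgf8 had 3 sites in these 20 kb, Fgf2, Fgf3, Fgf4 and Fgf17 had 1 each, and Fgf5 and Fgf15 had 0. The site of Fgf3 and that of Fgf4 are the same site, between both genes. It is counted for Fgf4 from the GENCODE start, and it lies outside the 20 kb around the RefSeq start (144861386). The sites at the members are printed with 9 flanking bases on each side (lower case) and the core in capitals, on the strand of the consensus.
Fgf8, in an intron, plus strand (chr19:45737376-45737405): gtgggcaccCCAGCAGATGGCgaggggagc
Fgf8, 3.62 kb upstream, plus strand (chr19:45746525-45746554): taaacacgcCCACCAGAGGGCgctagttcc
Fgf8, 4.76 kb upstream, minus strand (chr19:45747668-45747697): ccccagggaCCACCAGGTGGCactgtggcc
Fgf3 and Fgf4, intergenic, plus strand (chr7:144846349-144846378): tactcccttCCAGCAGGTGGCagtggtctc
Fgf17, 4.96 kb upstream, minus strand (chr14:70647220-70647249): ctcatgtgcCCAGCAGAGGGCaaccacgag
Fgf2, in an exon of the non-coding Fgf2os, plus strand (chr3:37341292-37341321): ccacagaggCCAGCAGAGGGCgtcagatcc
The upstream sites of Fgf8 face in opposite directions and lay in a single Hi-C anchor of 4308 bp, the same in both cell types, which held 599 read pairs in ESC and 560 in NCC. For CTCF HiChIP, 1 anchor covered both sites in ESC (2979 bp, 47 read pairs). In NCC an anchor of 1536 bp with 20 read pairs covered the minus-strand site, and none covered the plus-strand site. FGFR1 HiChIP anchors also differed there, with 60 read pairs over 2056 bp at the plus-strand site in ESC and 25 over 1536 bp at the minus-strand site in NCC. At the intron site FGFR1 HiChIP held 81 read pairs in ESC (6311 bp) and 19 in NCC (2316 bp). At the site of Fgf17, CTCF HiChIP held 44 read pairs in ESC (5053 bp of anchor) and 21 in NCC (3344 bp). The site between Fgf3 and Fgf4 was in no CTCF HiChIP anchor of either cell type, and its Hi-C anchor held 609 read pairs in ESC (6365 bp) and 277 in NCC (3516 bp). At the site of Fgf2, CTCF HiChIP held 7 and 9 read pairs in an anchor of 1798 bp. A match of the letters is a description of the sequence and not a measurement of CTCF binding.

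Levels of the members were compared as read pairs per kb of window per 1000000 read pairs of the library. In ESC Hi-C, the order was Fgf8 (3.62), Fgf4 (3.17), Fgf17 (3.02), Fgf3 (3.01), Fgf15 (2.88), Fgf5 (1.11) and Fgf2 (0.609), where the median over all genes was 1.11. The 5 members with the short gene bodies or the shared locus lay between the 90.3 and the 95.7 percentile of genes, Fgf5 at the median and Fgf2 at the 28.8 percentile. In NCC Hi-C, Fgf15 was highest (3.52), followed by Fgf8 (3.31), Fgf4 (2.90), Fgf3 (2.77), Fgf17 (2.58), Fgf5 (0.795) and Fgf2 (0.426). Neighbours in the ESC order from Fgf4 to Fgf15 had overlapping counting intervals, while Fgf5 and Fgf2 stood below all others in both cell types.

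In FGFR1 HiChIP of ESC, Fgf8 held the highest level (2.32 per kb per 1000000, 161 read pairs), followed by Fgf15 (1.58, 103 read pairs), Fgf17 (1.46, 101), Fgf4 (1.10, 111), Fgf5 (0.920, 105), Fgf3 (0.513, 36) and Fgf2 (0.198, 43). Fgf8 lay at the 94.2 percentile of genes, and the median gene had 0.932. In NCC the highest member was Fgf5 (1.69, 232 read pairs, 90.9 percentile), above Fgf8 (1.16, 97), Fgf15 (0.920, 72), Fgf17 (0.778, 65), Fgf2 (0.641, 168), Fgf4 (0.560, 68) and Fgf3 (0.379, 32). Fgf5 thus passed from the fifth to the first place among the members. In CTCF HiChIP, Fgf15 was highest in both cell types, with 3.70 in ESC (110 read pairs, 98.7 percentile) and 4.11 in NCC (106 read pairs, 99.4 percentile), although no consensus site was found in its window. Fgf17 followed with 3.09 (98 read pairs) and 2.40 (66). Fgf8 had 2.48 (79) and 1.59 (44), and Fgf4 had 2.47 (114) and 0.850 (34). Fgf5 had 1.48 (77) and 0.552 (25), Fgf3 had 1.46 (47) and 0.359 (10), and Fgf2 had 0.402 (40) and 0.764 (66).

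**Figure D1:**
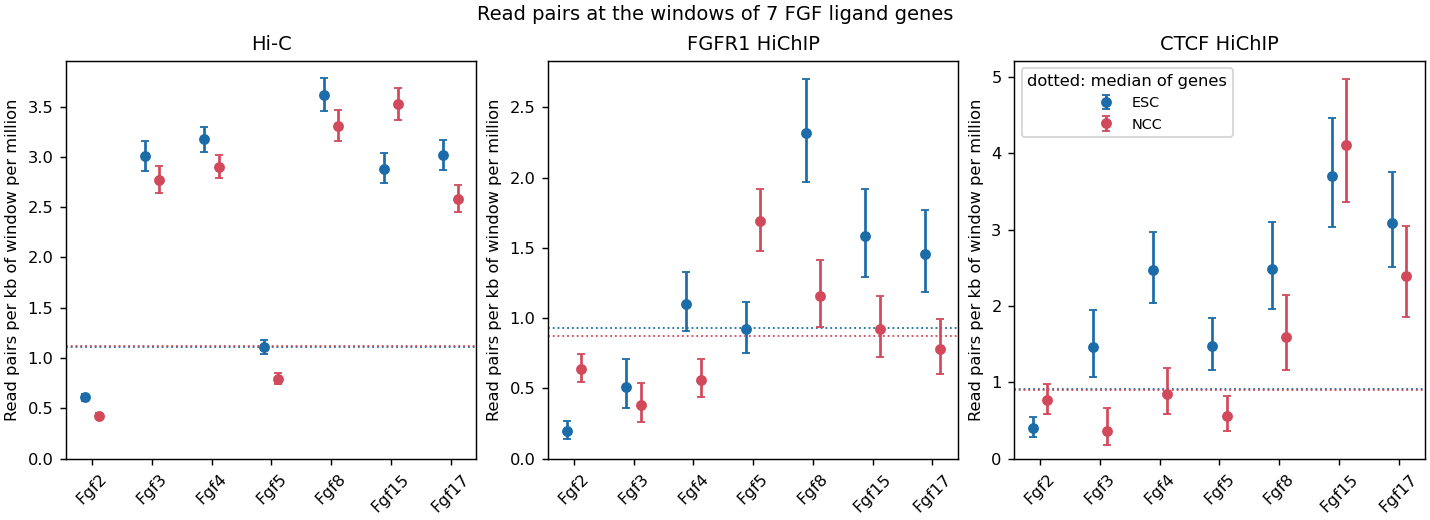
Read pairs per kb of window per 1000000 read pairs (y axis) for each of the 7 genes (x axis) in ESC (blue) and NCC (red), 1 panel per assay. Points are pooled libraries, bars are 95% Poisson intervals for counting error only, and dotted lines are the medians of all genes (1.11 in ESC Hi-C). Fgf2 and Fgf5 lie below the other members in Hi-C, and Fgf5 is the highest member in FGFR1 HiChIP of NCC.

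The first comparison asks how the contacts of the ligand genes differ after 48 h of retinoic acid. A member is called higher or lower when the scaled read pairs of one library exceeded those of the other by 25% or more, over at least 20 read pairs in both libraries together. In Hi-C, 0 of the 7 members were called higher in NCC and 2 lower, where 17.1% of 20548 genes were called higher and 19.8% lower. The called members were Fgf2, with 1033 read pairs in ESC and 739 in NCC (ratio 0.699, 95% interval from 0.635 to 0.769), and Fgf5, with 987 and 723 (0.716, from 0.649 to 0.789). The anchor length in the window of Fgf2 went the same way (54.7 kb in ESC and 36.3 kb in NCC, a ratio of 0.663), and per kb of anchor its ratio was 1.05 (from 0.958 to 1.16), so that the lower call was lost on this scale. In anchors that overlapped an anchor of the other cell type, Fgf2 had 931 and 739 read pairs (0.776, from 0.703 to 0.855) and was still called lower. Fgf5 had 27.6 kb of anchor in ESC and 23.4 kb in NCC (0.850), and its ratio per kb of anchor was 0.843 (from 0.764 to 0.928). Fgf15 was the member with more Hi-C read pairs in NCC, 1461 in ESC and 1826 in NCC (1.22, from 1.14 to 1.31), with an anchor-length ratio of 1.19. Fgf3 (1643 and 1551 read pairs), Fgf4 (2494 and 2334), Fgf8 (1961 and 1836) and Fgf17 (1631 and 1429) had ratios between 0.856 and 0.923, with anchor-length ratios of 1.05, 1.06, 0.913 and 1.04.

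In FGFR1 HiChIP, Fgf2 and Fgf5 were higher in NCC and the other 5 were lower, where 25.7% of 20226 genes were called higher and 36.4% lower. Fgf3, Fgf4 and Fgf15 belong to the chr7 locus, so that their calls are not independent. At Fgf2, 43 read pairs in ESC and 168 in NCC gave a ratio of 3.25 (from 2.31 to 4.65), at the 96.1 percentile of genes. At Fgf5, 105 and 232 read pairs gave 1.84 (from 1.45 to 2.34). For both genes the anchor length differed by nearly as much. Fgf2 had 4 anchors over 7.87 kb in ESC and 10 over 25.4 kb in NCC (ratio 3.22), and Fgf5 had 4 over 14.2 kb and 7 over 24.6 kb (1.74). Per kb of anchor, the ratios were 1.01 (from 0.717 to 1.44) for Fgf2 and 1.06 (from 0.837 to 1.35) for Fgf5. The higher read pairs of these genes in NCC thus lay in more anchors, with a ratio per kb of anchor whose interval held 1. When only anchors that overlap an anchor of the other cell type were counted, Fgf2 had 43 and 93 read pairs (1.80, from 1.24 to 2.64) and Fgf5 had 98 and 169 (1.43, from 1.11 to 1.86).

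At Fgf4, Fgf8 and Fgf15, FGFR1 HiChIP read pairs were fewer in NCC over nearly the same length of anchor. Fgf8 had 161 read pairs in ESC and 97 in NCC (ratio 0.501, from 0.385 to 0.648) with an anchor-length ratio of 0.912. Fgf4 had 111 and 68 (0.509, from 0.371 to 0.695) with an anchor-length ratio of 1.10. Fgf15 had 103 and 72 (0.581, from 0.424 to 0.793) with an anchor-length ratio of 1.04. Per kb of anchor, the ratios were 0.463 for Fgf4, 0.549 for Fgf8, 0.558 for Fgf15 and 0.518 for Fgf3, which lay at the 1.36, 4.19, 4.68 and 2.97 percentile of 19766 genes with a median of 0.850. Fgf3 had only 36 and 32 read pairs (ratio 0.739, from 0.444 to 1.22). Of these, 14 and 17 had a partner outside the window within 1 Mb (ratio 1.01, from 0.468 to 2.21), which turns the direction, and 8 and 1 lay inside 1 anchor. Fgf17 had 101 and 65 (0.535, from 0.385 to 0.738), but its anchors covered 10.3 kb in ESC and 7.16 kb in NCC, and per kb of anchor the interval of its ratio reached 1 (0.767, from 0.553 to 1.06). The chr7 locus, counted once, held 222 and 132 read pairs (0.494, from 0.395 to 0.616) at an anchor-length ratio of 0.970, while its Hi-C ratio was 1.07 (3855 and 4219 read pairs). In the shared anchors of Fgf8, 138 read pairs in ESC stood against 43 in NCC (0.259, from 0.179 to 0.367). In shared anchors Fgf4 had 44 and 27 (0.510, from 0.304 to 0.842), Fgf15 had 73 and 63 (0.717, from 0.504 to 1.02) and Fgf17 had 69 and 65 (0.783, from 0.549 to 1.11), the last 2 with intervals that held 1.

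In CTCF HiChIP, Fgf2 was higher in NCC, 5 members were lower and Fgf15 was not called, where 32.3% of 18851 genes were called higher and 33.2% lower. Fgf4 had 114 read pairs in ESC and 34 in NCC (ratio 0.344, from 0.227 to 0.508) and Fgf5 had 77 and 25 (0.374, from 0.228 to 0.595). Fgf3, with 47 and 10 read pairs, had the lowest ratio (0.245, from 0.111 to 0.492). Anchor length was again lower in NCC for these genes, with ratios of 0.494 for Fgf4, 0.576 for Fgf5 and 0.261 for Fgf3. Per kb of anchor, the ratios were 0.696 (from 0.460 to 1.03) for Fgf4, 0.650 (from 0.397 to 1.03) for Fgf5 and 0.941 (from 0.424 to 1.89) for Fgf3, so that all 3 intervals held 1. Fgf8 had 79 and 44 read pairs (0.642, from 0.434 to 0.940) and an anchor-length ratio of 0.710. Fgf17 had 98 and 66 (0.777, from 0.560 to 1.07) with an anchor-length ratio of 0.713. Fgf2 had 40 and 66 (1.90, from 1.27 to 2.89) with an anchor-length ratio of 1.57. The ratios per kb of anchor were 1.215 (from 0.808 to 1.85) for Fgf2, 0.904 (from 0.611 to 1.32) for Fgf8 and 1.09 (from 0.785 to 1.503) for Fgf17, so that these calls were lost and that of Fgf17 turned. With scores of at least 2, the ratio of Fgf2 was 0.979. In shared anchors, the lower calls of Fgf4 (0.484, from 0.314 to 0.731), Fgf5 (0.565, from 0.336 to 0.929) and Fgf8 (0.496, from 0.322 to 0.751) remained. The higher call of Fgf2 (1.91, from 1.21 to 3.06) also remained there. Fgf3 (0.607, from 0.252 to 1.37) and Fgf17 (0.857, from 0.587 to 1.24) had intervals that held 1 in shared anchors. Fgf15 had 110 and 106 read pairs (1.11, from 0.843 to 1.46), a difference within counting error.

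**Figure D2:**
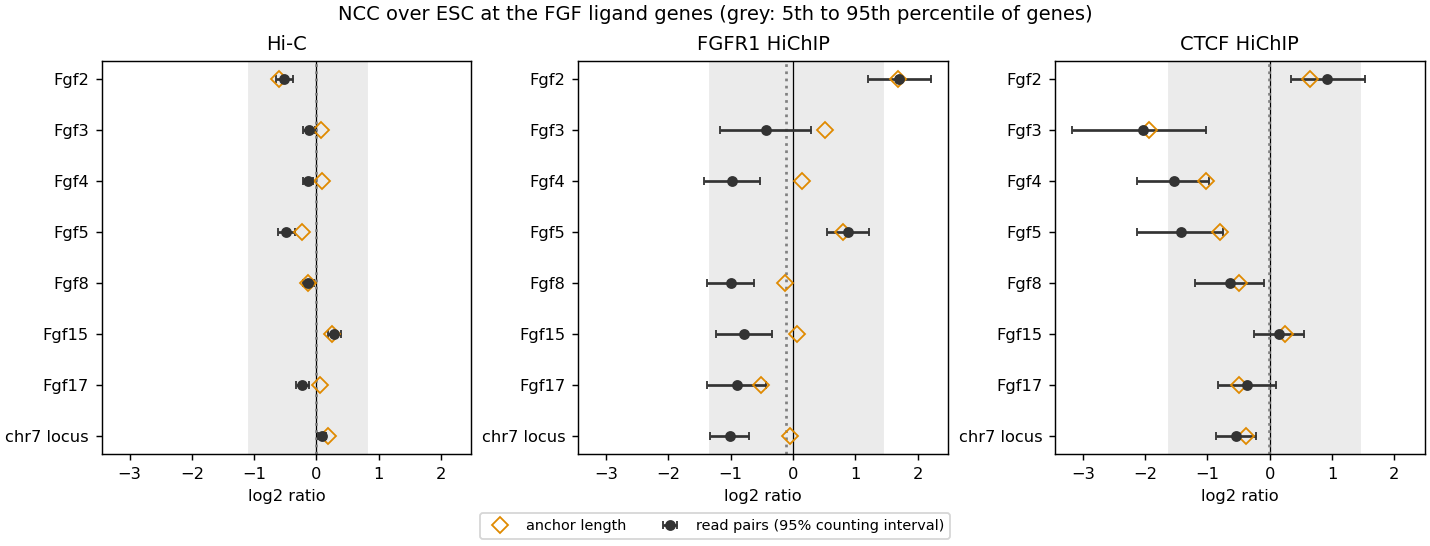
Log2 ratio of NCC over ESC (x axis) for the 7 genes and the chr7 locus (y axis) in Hi-C, FGFR1 HiChIP and CTCF HiChIP. Filled points are read pairs scaled to the library totals with 95% counting intervals, open diamonds are the anchor length in the window, the grey band spans the 5th to the 95th percentile of genes and the dotted line is their median. In FGFR1 HiChIP the points of Fgf2 and Fgf5 lie on their diamonds, while those of Fgf4, Fgf8 and Fgf15 lie to the left of theirs.

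The second comparison sets each HiChIP library against Hi-C of the same cells, which asks whether a gene held a larger share of the FGFR1- or CTCF-precipitated read pairs than of all contacts. In ESC, FGFR1 HiChIP over Hi-C called 0 members higher and 6 lower, against 21.8% and 46.6% of 20420 genes. Fgf3 (0.171, from 0.119 to 0.237), Fgf2 (0.324, from 0.233 to 0.440) and Fgf4 (0.347, from 0.284 to 0.419) were lowest, and Fgf5 (0.829, from 0.671 to 1.01) was not called. The anchor-length ratios of Fgf3, Fgf2 and Fgf4 were 0.121, 0.144 and 0.276, and per kb of anchor, where the median gene had 1.61, their ratios turned to 1.41, 2.25 and 1.26. Those of Fgf8 (1.62) and Fgf15 (1.01) also turned. Fgf17 had 0.968 (from 0.784 to 1.18) per kb of anchor and was not called, so that all 6 lower calls hold per window only. In NCC, 2 members were higher and 5 lower, against 23.3% and 52% of 20525 genes. The higher ones were Fgf5 (2.13, from 1.83 to 2.47) and Fgf2 (1.51, from 1.27 to 1.78). Fgf3 (0.137), Fgf4 (0.193), Fgf15 (0.261), Fgf17 (0.301) and Fgf8 (0.350) were all lower in FGFR1 HiChIP than in Hi-C. The anchor length of FGFR1 HiChIP at Fgf15 was 0.476 of that of Hi-C in NCC, and per kb of anchor its ratio was 0.548 where the median gene had 1.39, at the 0.291 percentile of genes. Fgf4 had 0.676 (from 0.523 to 0.860) per kb of anchor, and the higher Fgf2 and Fgf5 had 2.15 and 2.02. Fgf3 (0.831, from 0.567 to 1.18), Fgf8 (0.888, from 0.717 to 1.09) and Fgf17 (0.901, from 0.691 to 1.16) were no longer called per kb of anchor. ESC and NCC ratios here share no library, but each ratio shares its Hi-C library with the CTCF ratio below.

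CTCF HiChIP over Hi-C called 2 members higher and 4 lower in ESC, against 22.3% and 45.1% of 20293 genes. Fgf5 (1.33, from 1.04 to 1.68) and Fgf15 (1.28, from 1.05 to 1.56) were higher, Fgf17 was not called (1.02, from 0.826 to 1.26), and Fgf3 was lowest (0.487, from 0.357 to 0.651). In NCC, 1 member was higher and 4 lower, against 24.7% and 46.7% of 20242 genes. Fgf2 was the higher one (1.79, from 1.37 to 2.31). Fgf15 (1.17, from 0.9498 to 1.42) and Fgf17 (0.928, from 0.714 to 1.19) were not called, and Fgf3 (0.130), Fgf4 (0.293), Fgf8 (0.482) and Fgf5 (0.695, from 0.447 to 1.03) were lower. Counted per kb of anchor, where the median gene had 2.05 in ESC and 2.14 in NCC, all 4 lower ratios of each cell type were above 1. The higher members had 2.42 (Fgf5) and 2.02 (Fgf15) in ESC and 2.41 (Fgf2) in NCC. These lay at the 71.2, 48.2 and 63.9 percentile of genes. In shared anchors Fgf5 in NCC had 1.216 (from 0.778 to 1.82).

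**Figure D3:**
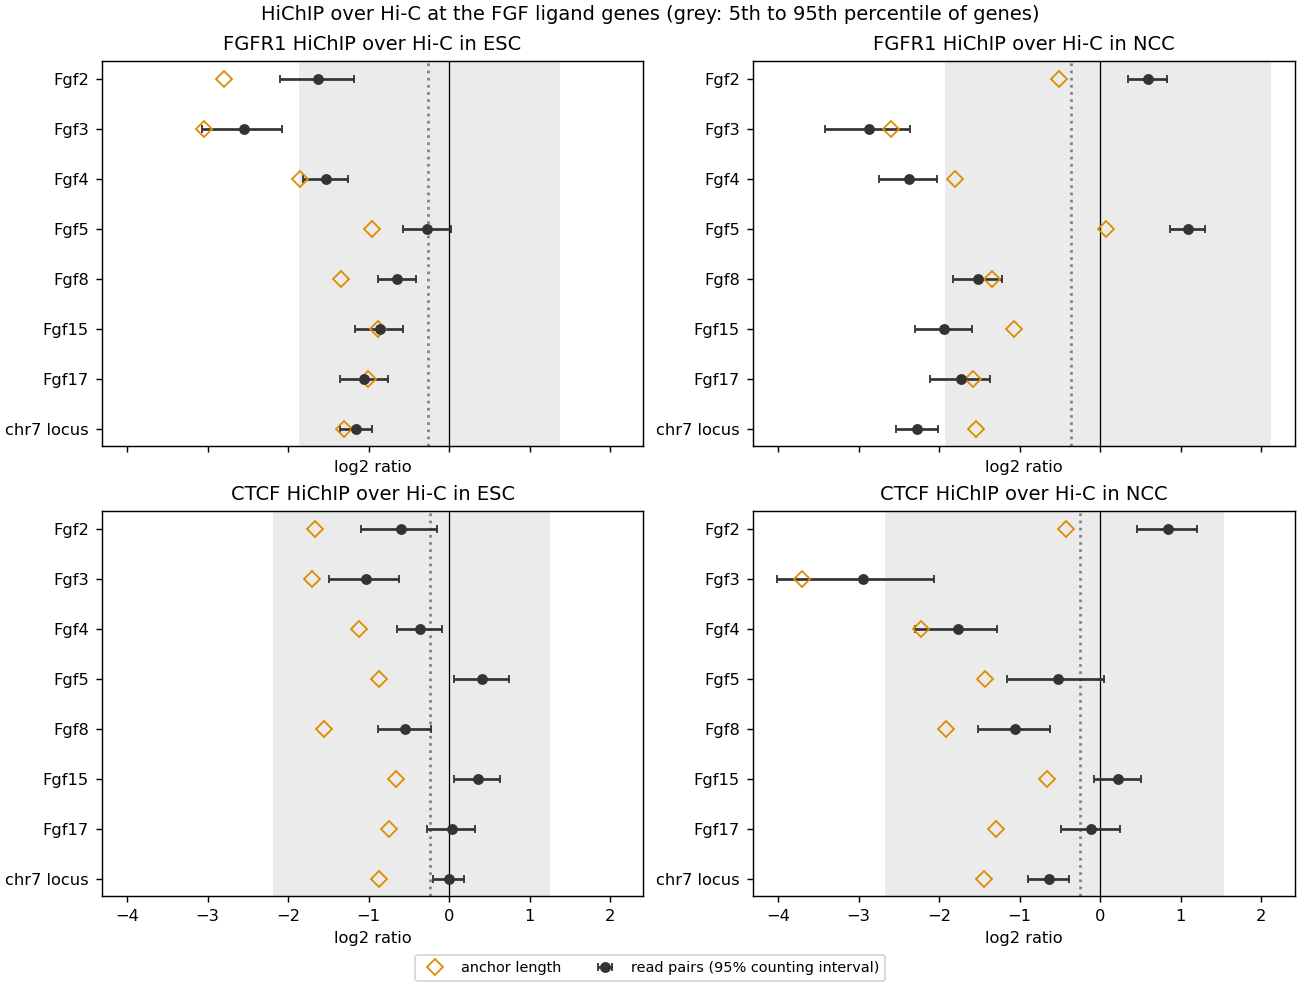
Log2 ratio of HiChIP over Hi-C (x axis) for the 7 genes and the chr7 locus (y axis), with FGFR1 above, CTCF below, ESC on the left and NCC on the right. Symbols are as in the plot of NCC over ESC, with the grey band from the 5th to the 95th percentile of genes. Fgf2 and Fgf5 are the members right of 0 in FGFR1 HiChIP of NCC.

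The members differed in how local their contacts were. In ESC Hi-C, read pairs with a partner outside the window and within 1 Mb made up from 29.4% (Fgf2) to 60.6% (Fgf15) of the read pairs of a member, and inter-chromosomal read pairs from 10.3% (Fgf5) to 18.5% (Fgf2). Fgf15 had more local read pairs in NCC than in ESC (885 and 1157, ratio 1.28, from 1.17 to 1.40) and also more inter-chromosomal ones (179 and 234, ratio 1.28, from 1.05 to 1.56). Fgf8 had 1063 and 1001 local read pairs (0.920, from 0.843 to 1.00) and fewer read pairs beyond 1 Mb on its own chromosome in NCC (195 and 147, ratio 0.737, from 0.591 to 0.917). Local FGFR1 HiChIP read pairs of Fgf8 were 90 in ESC and 56 in NCC (0.517, from 0.364 to 0.730), close to its ratio over all read pairs.

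The side on which the local partners lay differed between ESC and NCC for some members. Partners at least 20 kb from the window and within 1 Mb were counted on the side of the higher and of the lower coordinates. For Fgf8, 418 Hi-C read pairs lay on the higher and 582 on the lower side in ESC (41.8% higher, exact binomial 95% interval from 38.7% to 44.9%) and 203 and 650 in NCC (23.8%, from 21.0% to 26.8%). The anchor length on the higher side was 621 kb in ESC and 593 kb in NCC, and on the lower side 574 kb and 585 kb, so that it differed little. For Fgf4, with 337 and 512 read pairs in ESC and 199 and 614 in NCC, the share was 39.7% in ESC (from 36.4% to 43.1%) and 24.5% in NCC (from 21.6% to 27.6%), with 265 kb and 298 kb of anchor on the higher side. For Fgf2, it was 52.2% (from 45.8% to 58.6%) and 40.4% (from 32.8% to 48.2%), and the anchor length on the higher side was 359 kb in ESC and 274 kb in NCC. Local read pairs whose partner midpoint lay nearer than 20 kb are not in these counts. All local read pairs were 1059 and 1145 for Fgf4 and 1063 and 1001 for Fgf8, so that more were left out in NCC at both genes. Their part in the differences of the shares was not tested. Differences of 18.0 points for Fgf8, 15.2 for Fgf4 and 11.9 for Fgf2 compare with a median absolute difference of 3.70 points over 16952 genes, of which 9.79% differed by 10 points or more. Fgf3 (43.0% and 37.7%), Fgf5 (53.9% and 56.7%), Fgf15 (22.6% and 22.2%) and Fgf17 (17.6% and 20.5%) differed by less than 10 points. On the higher side, the chromosome ends 531 kb from the window of Fgf15, which limits its share and that of Fgf3 and Fgf4 in both cell types. In HiChIP, Fgf8 had 24 and 64 FGFR1 read pairs for this share in ESC, and the other HiChIP libraries had fewer. Its higher-side share was 27.3% in ESC and 34.8% in NCC with FGFR1 and 21.4% and 40.0% with CTCF, the opposite direction to Hi-C, with intervals that overlapped for both antibodies.

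**Figure D4:**
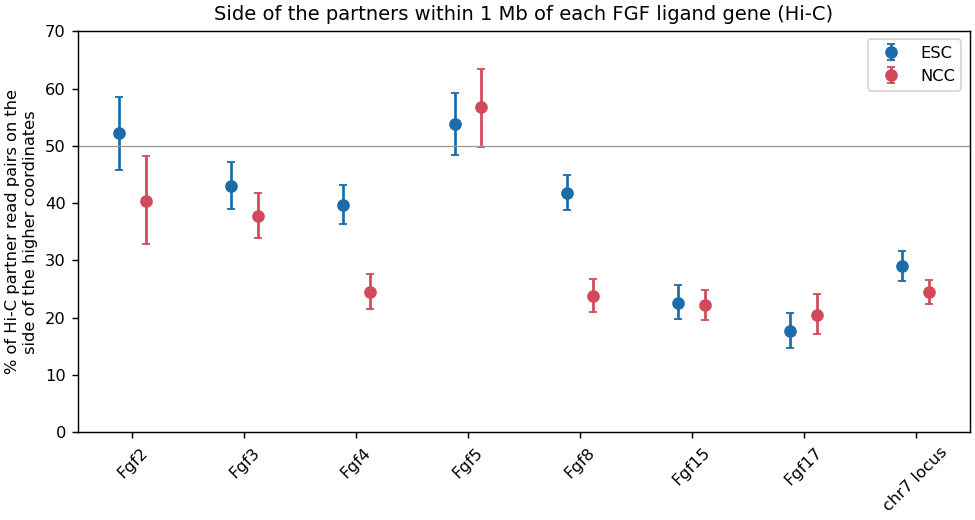
Share of Hi-C read pairs with partners at least 20 kb from the window and within 1 Mb that lay on the side of the higher coordinates (y axis, %) for the 7 genes and the chr7 locus (x axis) in ESC (blue) and NCC (red). Bars are exact binomial 95% intervals, and the grey line marks 50%. The shares of Fgf8 (41.8% and 23.8%) and Fgf4 (39.7% and 24.5%) have intervals that do not overlap.

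The partner genes of Fgf8 on both sides were then compared. Each partner gene of a member was counted over its body plus 10 kb on each side. Windows of neighbouring partners can therefore overlap and share read pairs, as those of Poll, Gm17018 and Fbxw4 do. Kcnip2, a potassium channel-interacting protein gene 48.9 kb from Fgf8 on the higher side, shared 131 Hi-C read pairs with Fgf8 in ESC and 54 in NCC (ratio 0.403, from 0.288 to 0.557). All Hi-C read pairs of Kcnip2 had a ratio of 0.779 and its anchor length 0.783, a smaller difference than that of its read pairs with Fgf8. Relative to the number expected from distance and coverage (observed over expected), the contact was 0.543 in ESC and 0.320 in NCC. On the lower side, Poll, a DNA polymerase gene 176 kb away, had 73 read pairs in ESC and 124 in NCC (1.66, from 1.23 to 2.25). All Hi-C read pairs of Poll had a ratio of 1.28 and its anchor length 1.22, and its contact with Fgf8 had an observed over expected of 1.06 in ESC and 1.58 in NCC. The 20 kb bin between Poll and Fbxw4 (45560001 to 45580000), most of which is the gene Gm17018, had 32 and 74 Hi-C read pairs with Fgf8 (2.26, from 1.47 to 3.54) and 14 and 1 in FGFR1 HiChIP. The partner gene Dpcd was fixed in advance, but the annotation used lists it as Gm17018, a name added after its values were seen. Gm17018 had 109 and 199 (1.78, from 1.41 to 2.28), where all its read pairs had a ratio of 1.47 and its anchor length 1.43. Fbxw4, the F-box gene that borders Fgf8 and whose introns hold known enhancers of Fgf8, had 214 and 262 read pairs (1.20, from 0.995 to 1.44). Btrc, beyond Poll, had 91 and 121 (1.30, from 0.982 to 1.72), where all read pairs of Btrc had a ratio of 1.27. Armh3, next to Kcnip2 and named here after its values were seen, had 150 and 95 (0.619, from 0.474 to 0.806), where all its read pairs had a ratio of 0.935. Hps6 (28 and 17 read pairs) and Ldb1 (27 and 16), on the side of Kcnip2, had ratios of 0.593 and 0.579 whose intervals held 1. Among 23 partner genes with enough read pairs, the highest observed over expected was that of Lbx1 (1.96), a homeobox gene 501 kb from Fgf8, with 40 and 34 read pairs. Tlx1, a homeobox gene 580 kb away, had 24 and 12. The window of Mgea5 overlaps that of Fgf8 and gives no separate value. In FGFR1 HiChIP, Fbxw4 shared 30 read pairs with Fgf8 in ESC and 10 in NCC, Poll 9 and 1, Btrc 10 and 2, and Kcnip2 8 and 1, which are too few to compare partner by partner.

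The chr7 locus had more partners on the lower side, toward Ano1, where more anchor length was also available. In ESC Hi-C, 364 read pairs lay on the higher and 893 on the lower side, over 249 kb and 540 kb of anchor. In NCC these were 391 and 1207, over 265 kb and 592 kb. How far the anchor length accounts for the shares was not tested. Ano1, a calcium-activated chloride channel gene 86.1 kb away, shared 324 Hi-C read pairs with the locus in ESC and 566 in NCC (ratio 1.71, from 1.49 to 1.96), and Fadd, a death-receptor adaptor gene, 64 and 145 (2.21, from 1.64 to 3.02). The read pairs of these partner windows with the whole genome differed nearly as much, with ratios of 1.51 for Ano1 and 2.14 for Fadd, and so did their anchor length (1.38 and 2.14). Observed over expected was accordingly near equal in ESC and NCC, 0.731 and 0.652 for Ano1 and 1.29 and 1.26 for Fadd. Ppfia1 (78 and 123 read pairs, 1.54, from 1.151 to 2.07) and Cttn (35 and 59, 1.65, from 1.07 to 2.58) lie beyond Fadd, and Shank2 had 107 and 142 (1.30, from 1.00 to 1.68). Ccnd1, the cyclin D1 gene 29.0 kb from Fgf15 on the other side, had 105 and 86 read pairs with the locus (0.800, from 0.595 to 1.07). Its observed over expected (0.342 in ESC and 0.189 in NCC, the lowest of 12 ranked partners) left out the 20 kb bin next to the locus. That bin holds the body of Ccnd1, so that the value describes the bin beyond the gene and not the contact with the gene itself. Fgf4 alone shared 42 read pairs with Ccnd1 in ESC and 23 in NCC (0.535, from 0.307 to 0.910), whereas Fgf15 shared 58 and 60 (1.01, from 0.693 to 1.48). LTO1, between Ccnd1 and Fgf15, had 97 and 62 read pairs with Fgf4 (0.625, from 0.447 to 0.868). The windows of Ccnd1 and LTO1 overlap and share read pairs, and they had all-partner ratios of 1.06 and 1.07. The partners with the highest observed over expected were Mrgprf (1.54) and Mrgprd (1.47), receptor genes near the chromosome end, with 30 and 26 and with 14 and 15 read pairs. For Fgf15 alone, the leading partners were Fadd (1.67), Tpcn2 (1.26) and Mrgprf (1.17). Tpcn2, an ion channel gene 286 kb away on the higher side, had 47 and 77 read pairs with Fgf15 (1.60, from 1.10 to 2.35), where its own ratio was 1.07.

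Within the locus, parts cut midway between the genes were joined by 175 Hi-C read pairs in ESC and 132 in NCC for Fgf3 and Fgf4 (ratio 0.737, from 0.584 to 0.929). Fgf4 and Fgf15 were joined by 152 and 182 (1.17, from 0.938 to 1.46), and Fgf3 and Fgf15 by 61 and 64 (1.03, from 0.711 to 1.48). Only the first interval lies below 1. In HiChIP, Fgf4 and Fgf15 were joined by 6 and 7 read pairs with FGFR1 and by 9 and 5 with CTCF, and Fgf3 and Fgf4 by 2 and 2 with FGFR1 and by 2 in ESC with CTCF. The part with Fgf3 had 0 CTCF HiChIP anchors in NCC and gives no value there. Of the CTCF consensus sites on the lower side of the locus, 3 lay in Hi-C anchors with more read pairs and more length in NCC, and a site in an intron of Ano1, 120 kb from the locus, lay in an anchor of 6662 bp with 316 read pairs in ESC and in none in NCC. The former are shown because the bin with the pair between Fadd and Ano1 is among the leading bins of the locus and the other site is the nearest one on this side.
Between Fadd and Ano1, minus strand (chr7:144583815-144583844): cagcagagaCCAGCAGAGGGCccctgattc
Between Fadd and Ano1, plus strand (chr7:144585820-144585849): ccagggttgCCAGCAGAGGGCggcagccac
Between Ano1 and Fgf3, minus strand (chr7:144776252-144776281): catgcttcaCCACCAGGGGGCagcacaggc
The anchor with the pair of sites between Fadd and Ano1 held 631 Hi-C read pairs over 5706 bp in ESC and 1737 over 17267 bp in NCC. The anchor with the site between Ano1 and Fgf3 held 752 over 11040 bp in ESC and 1728 over 29726 bp in NCC. In CTCF HiChIP, the minus-strand site between Fadd and Ano1 had 48 read pairs in ESC (2864 bp) and 33 in NCC (2182 bp), and the other sites were in no anchor.

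**Figure D5:**
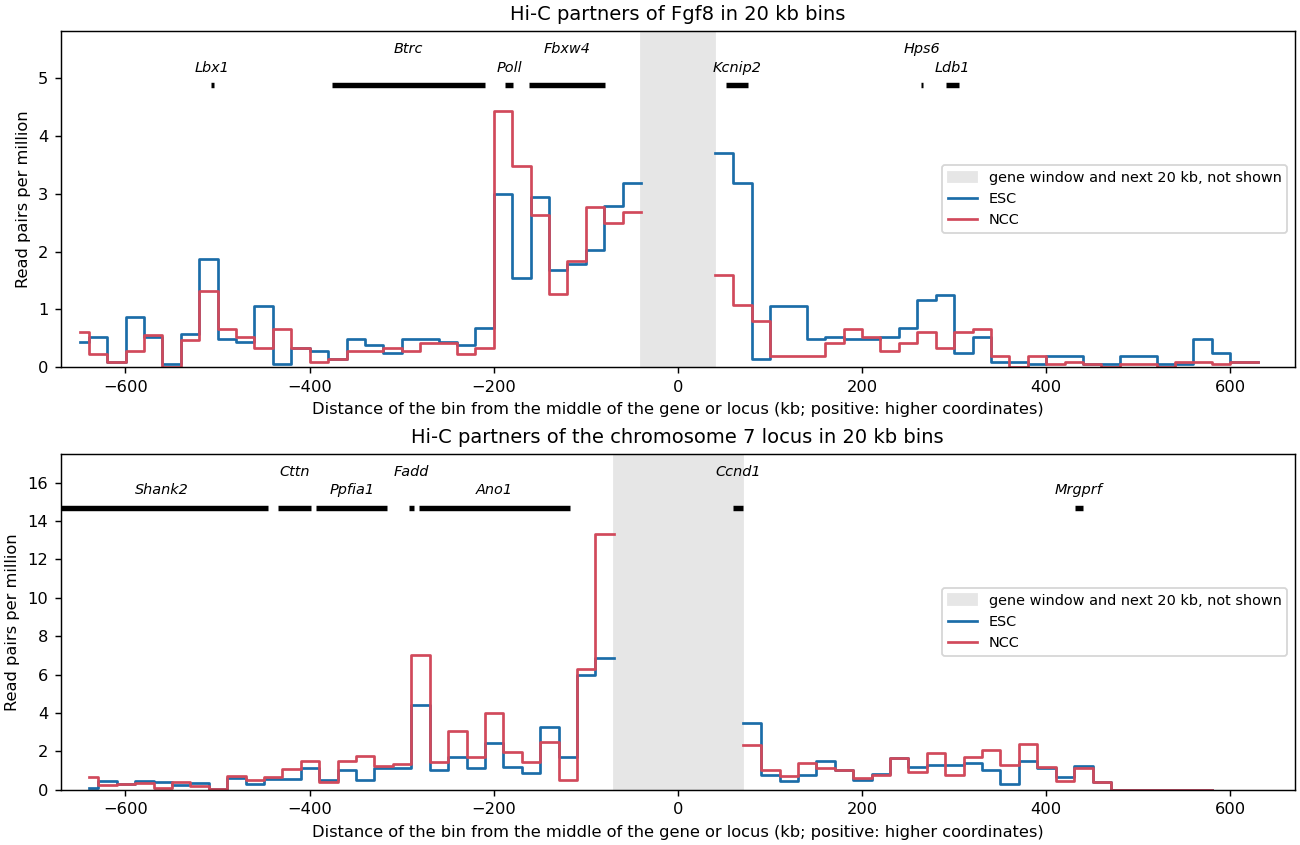
Hi-C read pairs per 1000000 (y axis) between Fgf8 (top) or the chr7 locus (bottom) and 20 kb bins by distance from the middle of the gene or locus (x axis, kb; positive toward higher coordinates), in ESC (blue) and NCC (red). Black bars are partner genes, and the gene window with the next 20 kb is grey. The NCC line of Fgf8 lies below the ESC line at Kcnip2 and above it at Poll, and the NCC line of the locus lies above the ESC line next to the locus on the lower side and at Fadd.

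Fgf5 had fewer Hi-C read pairs in NCC with its neighbours on both sides. Prdm8, a histone methyltransferase family gene 65.2 kb away, had 62 in ESC and 22 in NCC (ratio 0.347, from 0.203 to 0.572). The ratio of all read pairs of Prdm8 was 0.855 and that of its anchor length 1.12. Cfap299, a cilia protein gene on the other side, had 124 and 69 (0.544, from 0.399 to 0.736), and its own ratio was 0.745. Observed over expected was 2.30 and 2.16 for Prdm8 and 1.40 and 1.54 for Cfap299. Relative to coverage, both contacts were thus similar in ESC and NCC over the whole partner window. Single 20 kb bins at Prdm8 differed in both directions. The bin from 98160001 to 98180000 had 2.73 and 1.90 (32 and 13 read pairs), and that from 98180001 to 98200000 had 2.09 and 2.36 (38 and 20). Bmp3, a BMP family ligand gene 577 kb from Fgf5, had 14 and 8 read pairs and an observed over expected of 4.79. Rasgef1b, 940 kb away, had 14 and 15. It reaches beyond the distance up to which expected read pairs were computed, while its observed ones were all counted. Its value of 5.08 is therefore inflated and cannot be ranked. Prkg2 had 10 and 13 read pairs (observed over expected 3.69), and Antxr2, on the lower side, had 21 and 14. In FGFR1 HiChIP, Cfap299 shared 15 read pairs with Fgf5 in ESC and 30 in NCC, and the bin between Prdm8 and Fgf5 (98200001 to 98220000) had 1 and 10.

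Fgf2 had few partners with 20 read pairs or more. The gene 4932438A13Rik, 295 kb away, had 25 read pairs with Fgf2 in ESC and 3 in NCC (ratio 0.117, from 0.0227 to 0.384), but all read pairs of that gene had a ratio of 0.257 and its anchor length 0.244. Il21, a cytokine gene, had 7 and 17 (2.37, from 0.935 to 6.77) and a total ratio of 2.61, and Adad1 had 12 and 5. Observed over expected, ESC and NCC together, was 4.56 for Il21, 4.52 for 4932438A13Rik and 3.86 for Adad1. Spry1, a feedback inhibitor of FGF signalling 230 kb from Fgf2, had 6 and 6 read pairs (0.977, from 0.261 to 3.66), a depth at which a difference was not detectable. The windows of Nudt6 and Spata5 overlap that of Fgf2.

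Fgf17 was the member with the most one-sided partners, with 109 Hi-C read pairs on the higher side and 509 on the lower side in ESC, over 253 kb and 528 kb of anchor. Hr, a transcriptional corepressor gene 62.7 kb away, had 192 read pairs in ESC and 132 in NCC (ratio 0.672, from 0.534 to 0.843). Reep4 had 116 and 88 (0.741, from 0.555 to 0.987), Lgi3 98 and 70 (0.698, from 0.506 to 0.958) and Nudt18 81 and 67 (0.808, from 0.576 to 1.13). Observed over expected lay between 1.46 and 1.94 for these genes in both cell types. Bmp1, a protease gene that cleaves procollagens, had 94 and 109 (1.13, from 0.852 to 1.51), and Sftpc had 46 and 49. The windows of Dmtn and Npm2 overlap that of Fgf17. Those of Bmp1, Sftpc, Lgi3, Reep4, Hr and Nudt18 overlap each other in this order and share read pairs, so that their values are not independent.

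The other genes of the FGF pathway were taken from fixed lists and described by counts, with those named that were past 2-fold or in a count of 5 or fewer. In FGFR1 HiChIP, NCC over ESC, 3 of 14 measured other FGF family genes were higher and 8 lower, with a median ratio of 0.732. Over all genes the median was 0.929, and 25.7% were called higher and 36.4% lower. The higher FGF family genes were Fgf14 (1.42), Fgf10 (1.39) and Fgf6 (1.34). Fgf22 (0.405, from 0.304 to 0.536) and Fgf13 (0.407, from 0.236 to 0.683) were lower past 2-fold. Among 7 receptors and co-receptors (median 0.854), 0 were higher and 3 lower, the co-receptors Klb (0.461) and Kl (0.699) and the receptor Fgfr4 (0.632). Among 9 feedback inhibitors (median 0.770), the MAP kinase phosphatases Dusp6 (1.42) and Dusp4 (1.28) were higher, and Spry2 (0.522), Spry4 (0.596), Il17rd (0.637), Spry1 (0.760) and Spred2 (0.770) were lower. Among 9 target transcription factors (median 0.773), Cdx2 (1.57) and Etv1 (1.49) were higher, and Tbx6 (0.445), T (0.503), Etv4 (0.648), Egr1 (0.725) and Cdx4 (0.773) were lower.

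For these lists no anchor-length ratios are given. In Hi-C, 17.1% of all genes were called higher and 19.8% lower. Of the 15 other FGF family genes (median of the list 0.883), 1 was higher, Fgf7 (1.27). The 4 lower ones were Fgf16 (0.226), Fgf13 (0.249), Fgf14 (0.252) and Fgf22 (0.778). Of the 7 receptors and co-receptors (median 0.988), Klb (1.34) was higher and Fgfr3 (0.693) lower. Of the 9 feedback inhibitors (median 0.863), 0 were higher and 2 lower, Spry4 (0.633) and Spry2 (0.688), and of the 9 target transcription factors (median 0.868) 0 were higher and 2 lower, Etv4 (0.734) and Etv5 (0.756). In CTCF HiChIP, 32.3% of all genes were called higher and 33.2% lower. Of 13 other FGF family genes (median 1.153), 5 were higher, Fgf23 (4.61, with 6 and 24 read pairs), Fgf6 (2.58), Fgf7 (1.66), Fgf14 (1.53) and Fgf20 (1.53). The 2 lower ones were Fgf21 (0.343) and Fgf1 (0.705). Of the receptors and co-receptors (median 0.935), Fgfr4 (2.14, from 1.45 to 3.19), Fgfr3 (1.57) and Fgfrl1 (1.46) were higher, and Kl (0.391) and Fgfr2 (0.736) were lower, where Fgfr2 held 3118 and 1991 read pairs. Of the feedback inhibitors (median 0.909), Dusp6 (3.12, from 1.93 to 5.22), Dusp4 (1.41) and Spred1 (1.29) were higher, and Spry4 (0.480), Spred3 (0.542) and Spry1 (0.586) were lower. Of the target transcription factors (median 0.765), Cdx1 (1.85) was higher, and Etv4 (0.0876, from 0.0312 to 0.199), Cdx4 (0.157, with 22 and 3 read pairs), Etv5 (0.687), Tbx6 (0.708) and Cdx2 (0.765) were lower.

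The genes most like each member were found by the Euclidean distance over the log2 levels of the 6 libraries, among 14995 to 15028 genes with 20 read pairs or more in each. They were Insl3 (0.243) and Bahcc1 (0.276) for Fgf8, Bin2 (0.370) for Fgf17, Med29 (0.470) and Acvr2b (0.555) for Fgf4, Ucp1 (0.489) and 4930550C14Rik (0.552) for Fgf5, Ankrd50 (0.569) and Cdhr1 (0.578) for Fgf2, and Derl3 (0.585) and Capn11 (0.624) for Fgf15. The median distance of all genes was between 2.34 (Fgf5) and 3.94 (Fgf2). Fgf3 had only 10 read pairs in CTCF HiChIP of NCC and was not ranked.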

How the data were processed

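Hi-C and HiChIP read pairs of ESC and NCC were analysed as deposited. The authors mapped reads to mm10 and filtered them for valid pairs (HiC-Pro), called anchors from all reads of each sample (hichipper, with no filter on q; versions not given in the sources used here), and merged 2 biological replicates per group. The score column deposited by the authors holds counts, the number of read pairs that join 2 anchors, not scaled between libraries. All 311160 anchors on the 5 chromosomes of the members began at a GATC in the GRCm38 sequence. At least 99.1% of each library lay on chromosomes 1 to 19 and X, and the rest was left out.

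Read pairs with an anchor in a window (GENCODE vM21 gene body plus 10 kb) were counted once, with numpy 2.4.6, scipy 1.17.1 and pandas 2.3.3. Ratios were scaled to library totals, and genes with fewer than 20 read pairs in both libraries together were not called. Without replicates no test was made, and intervals (95%, exact) cover counting error only. Read pairs of PCR-amplified libraries are not fully independent molecules. Partners were placed by anchor midpoints in 20 kb bins, and expected numbers came from distance and bin coverage of the library. Steps were tested on simulated data. The members, partner genes and gene lists were chosen with earlier results of these data known. All members and fixed partner genes were named, with the 3 partners of highest observed over expected at 20 read pairs or more, the 2 nearest genes by level (1 of them is not reported here), and pathway genes past 2-fold or in a count of 5 or fewer. Alternatives are given in the closing section, and per kb of anchor, shared anchors and RefSeq spans were added after seeing the data.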

Additional observations from a re-analysis of the deposited data

How the results depend on the processing

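No paired analysis was possible because the replicates of each group were merged before deposit, and leaving out a replicate was not possible for the same reason. Of 63 counts of members past the fold under 9 alternatives (gene body only, 25 kb flanks, no read pairs inside 1 anchor, score of at least 2, scaling to read pairs within 1 Mb, anchor midpoints, partners within 1 Mb only, 1.5-fold, no minimum), 61 stayed within 1.5 times the main count. At 1.5-fold, Hi-C NCC over ESC called 0 members and CTCF HiChIP over Hi-C in ESC called 2. Per kb of anchor, chosen after seeing the data, Hi-C NCC over ESC called 0 members, CTCF HiChIP NCC over ESC 2 and FGFR1 HiChIP over Hi-C in NCC 4, and with shared anchors CTCF HiChIP over Hi-C in NCC called 3. The FGFR1 HiChIP count, NCC over ESC, was between 5 and 7 under all alternatives.

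Among ratios past the fold, those that changed direction were, for NCC over ESC, Fgf3 in FGFR1 HiChIP with partners within 1 Mb only (1.009), and in CTCF HiChIP Fgf2 with a score of at least 2 (0.979) and Fgf17 with the gene body only (1.4). Per kb of anchor, Fgf2 in Hi-C (1.05) and Fgf17 in CTCF HiChIP (1.09) changed direction, and of those not past the fold Fgf8 in Hi-C (1.00) and Fgf15 in CTCF HiChIP (0.938). For CTCF HiChIP over Hi-C in ESC these were Fgf4 with the gene body only (1.147) and Fgf15 with 25 kb flanks (0.9) and with partners within 1 Mb only (0.789), and in NCC Fgf2 with a score of at least 2 (0.681) and Fgf5 with shared anchors (1.216). Per kb of anchor, the median gene had a ratio of HiChIP over Hi-C of 1.61 and 1.39 (FGFR1 in ESC and NCC) and of 2.05 and 2.14 (CTCF), and the following changed direction. In ESC, these were Fgf2 (2.25), Fgf3 (1.41), Fgf4 (1.26), Fgf8 (1.62), Fgf15 (1.01) and, not past the fold, Fgf5 (1.61) for FGFR1 and Fgf2 (2.10), Fgf3 (1.58), Fgf4 (1.69) and Fgf8 (2.02) for CTCF. In NCC, for CTCF, they were Fgf3 (1.69), Fgf4 (1.37), Fgf5 (1.87), Fgf8 (1.82) and, not past the fold, Fgf17 (2.27, and 1.01 with shared anchors). For FGFR1 in NCC no member changed direction, but Fgf3, Fgf8 and Fgf17 were no longer called. The cause of the other changes was not tested. Side shares of partners at least 100 kb away or with a score of at least 2 moved beyond their intervals in 10 of 28 values, among them Fgf8 in ESC at 100 kb or more (32.8%) and in NCC with a score of at least 2 (16.97%). Depth limits HiChIP, with as few as 10 read pairs for Fgf3.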
